A study of Mus musculus with 2 samples.

Results

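The 3 ribosomal RNA (rRNA) entries of a repeat-by-repeat ChIP-seq table, LSU-rRNA_Hsa, SSU-rRNA_Hsa and 5S, were examined for reads recovered with an H3.3S31ph antibody, which recognises the histone variant H3.3 when its serine 31 is phosphorylated. They were taken by name and are 3 of the 952 repeat types in the tables. LSU-rRNA_Hsa stands for the large and SSU-rRNA_Hsa for the small ribosomal subunit RNA, both under names that refer to the human sequence, and 5S for the short RNA of the large subunit. All reads came from wild-type mouse embryonic stem (ES) cells of strain 129S1/SvImJ, in 2 groups of 1 sample each. One was the H3.3S31ph ChIP, and the other was the input, chromatin sequenced with no antibody. Both samples carry the same cell treatment in their labels: 9 µM of the CDK1 inhibitor RO-3306 for 12 hours, washing, and harvest in mitosis 11 hours later. Each library was sequenced on 2 lanes, which are runs of 1 library and not replicates.

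The genes of the large and small subunit RNAs are transcribed by RNA polymerase I as parts of 1 long precursor, which is processed into the mature RNAs. These transcription units lie in tandem arrays, the nucleolar organizers, around which the nucleolus forms in interphase and where polymerase I transcription stops during mitosis. The 5S RNA is transcribed by RNA polymerase III from separate genes outside those arrays. H3.3 is a histone variant placed on chromatin independently of DNA replication, and serine 31, which the canonical H3 histones lack, is phosphorylated in mitosis.

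The mouse RefSeq table for GRCm38.p6 shows how 5S sequence is spread. It names 77 entries as 5S, of which 58 are called rRNA and 19 pseudogene. In gene order 49 of them stand beside another 5S entry, in a run of 26 and a run of 23, and 28 have no 5S neighbour. The deposited tables pool reads by repeat type, so reads from array genes and from scattered copies or fragments cannot be told apart for any of the 3 entries. The submitters' processing notes name the build mm9, so no coordinates are given from this table.

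The tables held 12235477 reads of the ChIP and 8856751 of the input, between 4389635 and 6204712 per library and lane. The 3 rRNA entries made up 19542 of the ChIP reads, a share of 0.160% (95% exact Clopper-Pearson interval 0.157 to 0.162), and 13139 of the input reads, a share of 0.148% (0.146 to 0.151). All intervals here are of this exact kind, cover counting error only and are no replicate check, since each group has 1 sample. There is therefore no p-value for any difference between ChIP and input. The tables hold repeat types only, and the labelled cell type was not checked against marker genes here. The telomeric row (CCCTAA)n, as a point of scale, had a ChIP share 14.4 times its input share, against 0.997 for the major satellite GSAT_MM and 1.15 for the minor satellite SYNREP_MM.

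The large subunit entry LSU-rRNA_Hsa carried most of the rRNA reads. In the ChIP it had 6227 reads in lane 1 and 5951 in lane 2, and in the input 3844 and 3977. Per 10000 repeat reads this was 10.04 and 9.87 in the ChIP, against 8.61 and 9.06 in the input. Both ChIP lanes lay above both input lanes, and none of the ChIP intervals overlapped an input interval. The ratio of ChIP share to input share was 1.13 (1.10 to 1.16) with lanes summed, 1.17 (1.12 to 1.21) in lane 1 and 1.09 (1.05 to 1.13) in lane 2. The LSU entry was thus higher in the ChIP in each lane, by an amount small beside that of the telomeric row. Rows named for their base content differed too, with a ratio of 1.31 (1.24 to 1.40) for GC_rich and 0.699 (0.691 to 0.707) for AT_rich. Whether base content bears on the LSU ratio was not tested.

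The small subunit entry SSU-rRNA_Hsa, which stands for an RNA of the same transcription unit, did not show this on the scale of table totals. It had 3027 and 3006 ChIP reads in lanes 1 and 2, and 2179 and 2144 input reads. Per 10000 repeat reads these were 4.88 and 4.98 in the ChIP, and 4.88 in each input lane. ChIP and input intervals overlapped in both lanes. Its ratio was 1.01 (0.971 to 1.05) with lanes summed, 1.00 (0.946 to 1.06) in lane 1 and 1.02 (0.965 to 1.08) in lane 2. On this scale, the counts leave room for a ChIP share from 0.971 to 1.05 times the input share, a range that includes an equal one. The outcome depends on the scale between the libraries. With the median row set to 1 the log2 ratio of SSU-rRNA_Hsa was 0.33, and on the authors' deposited scale 0.18, both above this interval.

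The 5S entry had the fewest reads, 703 and 628 in the ChIP lanes and 508 and 487 in the input lanes. Per 10000 repeat reads this was 1.13 and 1.04 in the ChIP, and 1.14 and 1.11 in the input. All 4 intervals overlapped. The ratio was 0.968 (0.891 to 1.05) with lanes summed, 0.996 (0.888 to 1.12) in lane 1 and 0.939 (0.833 to 1.06) in lane 2. With under 1000 input reads, 5S had the widest interval of the 3, and no difference from the input share was detectable on the scale of table totals.

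**Figure D1:**
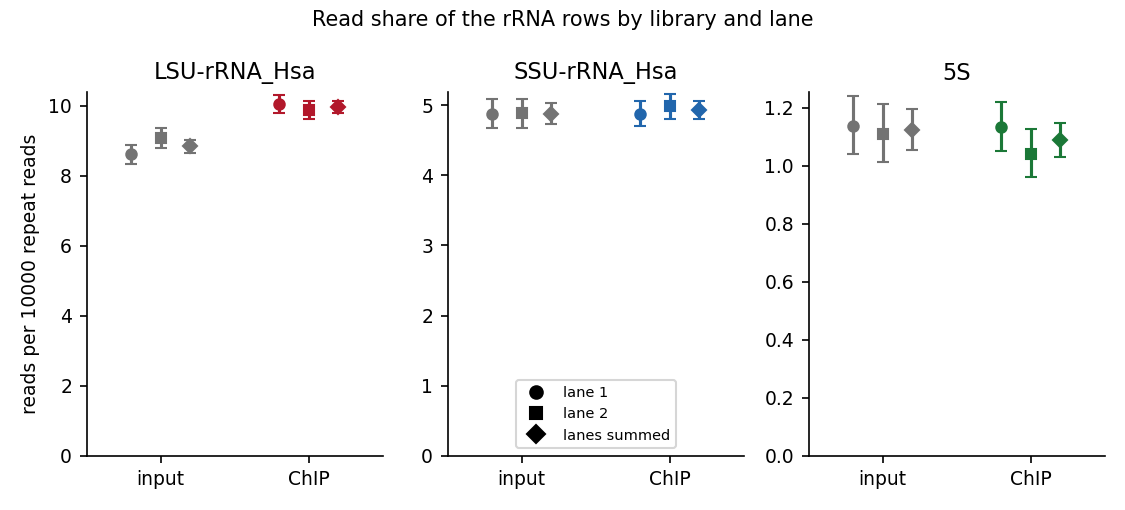
Reads per 10000 repeat reads (vertical axis, from 0 in each panel) for the 3 rRNA entries in the input (grey) and the H3.3S31ph ChIP (coloured), for lane 1, lane 2 and both lanes summed, with 95% exact intervals of counting error. LSU-rRNA_Hsa lies at 9.87 to 10.04 in the ChIP lanes and at 8.61 to 9.06 in the input lanes, while the intervals of ChIP and input overlap for the other entries.

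Because all shares of a library add up to a fixed total, the position of the entries among all rows was also determined. The row at the median of the 704 rows with at least 100 input reads had a ratio of 0.805 (a log2 ratio of -0.31). LSU-rRNA_Hsa had 1.40 times the ratio of this median row, SSU-rRNA_Hsa 1.26 times and 5S 1.20 times. All 3 intervals lay above the median row, as did those of 27.3% of all rows. With at least 1000 input reads, where intervals are narrower, those of 148 of 406 rows did. The intervals of some rows of other structural RNAs also lay above the median row, as given below. The interval of 5S in lane 2, at a log2 difference of 0.046 to 0.39, came closest to the median row. A ratio at least 25% above that of the median row was reached by LSU-rRNA_Hsa and SSU-rRNA_Hsa and by 11.1% of rows. SSU-rRNA_Hsa lay just past this fold, at 1.24 times the median row in lane 1 and 1.27 times in lane 2, so that lane 1 alone would not reach it. The 5S entry lay just short of it. Against a ratio of 1 on the scale of table totals, only the interval of LSU-rRNA_Hsa among the 3 lay above 1, which 7.81% of rows did. With at least 1000 input reads, 43 of 406 rows did. The intervals of SSU-rRNA_Hsa and 5S included 1, as did those of 12.6% of rows, while 79.5% of rows lay below 1. None of the 3 had a ratio at least 25% above 1 on that scale, which 4.12% of rows did.

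**Figure D2:**
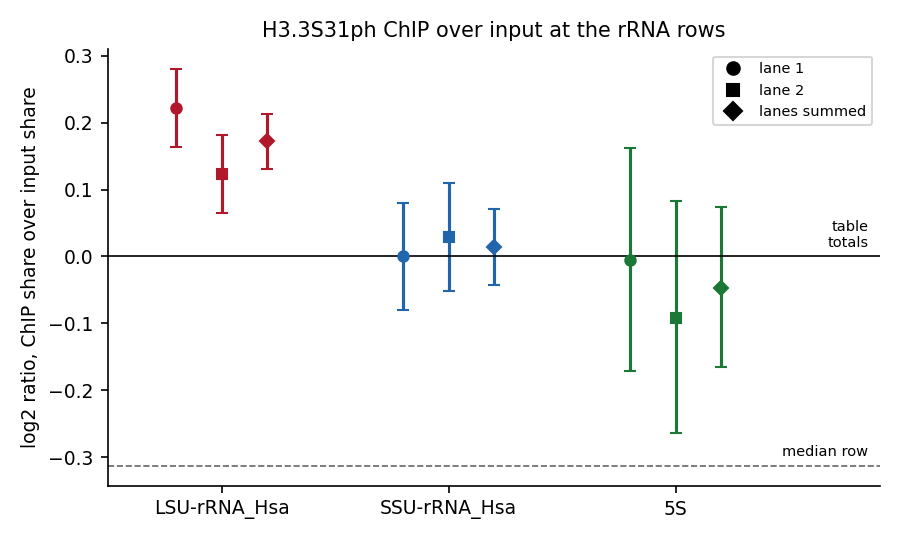
The log2 ratio of ChIP share to input share (vertical axis) for the 3 rRNA entries in lane 1, lane 2 and both lanes summed, with 95% exact intervals of counting error. The solid line at 0 marks equal shares and the dashed line the median row at -0.31; every point lies above the dashed line, and only the LSU-rRNA_Hsa intervals lie wholly above the solid one.

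In the order of ratios, 46 of the 703 other rows stood above LSU-rRNA_Hsa, 73 above SSU-rRNA_Hsa and 99 above 5S. The lower and upper bounds of the interval placed LSU-rRNA_Hsa above 92.5% and 94.2% of rows, SSU-rRNA_Hsa above 86.5% and 91.5%, and 5S above 78.4% and 91.6%. The order of LSU-rRNA_Hsa and SSU-rRNA_Hsa was the same in both lanes. SSU-rRNA_Hsa and 5S are neighbours among the 3 and were not separable in either lane.

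The rows nearest to the rRNA entries in ratio, among those with at least 1000 input reads, belonged to endogenous retroviruses. LSU-rRNA_Hsa stood between RLTR10E at 1.13 (1.08 to 1.19) and RLTR10D at 1.12 (1.07 to 1.17), with LTRIS4 at 1.14 and IAPLTR4 at 1.12 next to them. SSU-rRNA_Hsa stood between IAPEy-int at 1.01 (0.986 to 1.04) and RLTR10B2 at 1.01 (0.955 to 1.06), flanked by RLTR13B2 and RLTR41. The 5S entry stood between RLTRETN_Mm at 0.969 (0.941 to 0.997) and LTRIS_Mm at 0.967 (0.904 to 1.03), flanked by RLTR13D1 and RLTR9A. The 12 neighbours were chosen for their nearness in ratio, so that they lie within counting error of the entry is a description. All 12 had names beginning with RLTR, LTRIS or IAP, which 103 of the 406 rows with at least 1000 input reads have (25.4%). That share is over rows of every ratio and not over rows near the entries, so it is no measure of likeness. Rows with other names lay a little further off, among them B1_Mur3 at 0.972, GSAT_MM at 0.997, B2_Mm1a at 1.02 and SYNREP_MM at 1.15. This grouping by name was made after the neighbours were seen, and likeness here is over 1 value per row.

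The large and the small subunit entries were then set against each other, since they stand for RNAs of the same transcription unit. Reads of scattered copies outside such units could not be set apart. The ratio of their ratios does not depend on how the libraries are scaled. LSU-rRNA_Hsa had 2.02 reads per SSU-rRNA_Hsa read in the ChIP and 1.81 in the input. The ChIP value was 1.12 times the input value (1.06 to 1.17), a log2 difference of 0.16 (0.088 to 0.23). By lane, there were 2.06 and 1.98 LSU reads per SSU read in the ChIP, and 1.76 and 1.85 in the input. Both ChIP lanes were above both input lanes. LSU reads made up 67.3% (66.3 to 68.2) and 66.4% (65.5 to 67.4) of the reads of both subunits in the ChIP lanes, and 63.8% (62.6 to 65.0) and 65.0% (63.8 to 66.2) in the input lanes. The intervals of lane 2 overlapped between ChIP and input. The log2 difference was 0.22 (0.12 to 0.32) in lane 1, but 0.094 in lane 2, with an interval from -0.0057 to 0.19 that included 0. A difference of 0.16 is also common between rows: among all 82215 pairs of rows with at least 1000 input reads the median absolute difference was 0.15, and 48.7% of pairs differed by more. The rows' lengths are not in the tables, so the numbers of LSU, SSU and 5S reads were not compared as levels.

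LSU-rRNA_Hsa was also higher relative to 5S, whose genes lie elsewhere. There were 9.15 LSU reads per 5S read in the ChIP and 7.86 in the input, a log2 difference of 0.22 (0.092 to 0.35). It was 0.23 (0.050 to 0.40) in lane 1 and 0.21 (0.031 to 0.40) in lane 2, above 0 in both. SSU-rRNA_Hsa had 4.53 reads per 5S read in the ChIP and 4.34 in the input, a log2 difference of 0.061 with an interval from -0.072 to 0.19. That difference was 0.0055 in lane 1 and 0.12 in lane 2, and both intervals included 0. The interval leaves room for an SSU ratio up to 1.14 times, or down to 0.951 times, that of 5S. With both subunits pooled, there were 13.7 reads per 5S read in the ChIP and 12.2 in the input, a log2 difference of 0.16 (0.040 to 0.29). In lane 1 alone this interval, from -0.023 to 0.32, included 0. Of the 3 pairs of entries, the 2 that hold LSU-rRNA_Hsa had an interval above 0, and these 2 differences share the LSU reads. The share of all pairs of rows with an interval that excludes 0 was not determined, so this count shows nothing particular to the rRNA entries.

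**Figure D3:**
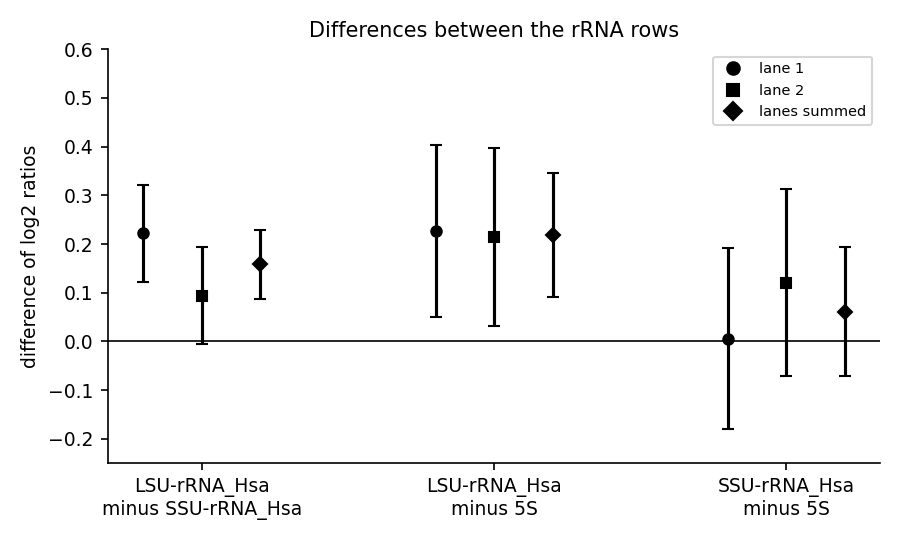
Differences of log2 ratios between pairs of rRNA entries (vertical axis) in lane 1, lane 2 and both lanes summed, with 95% exact intervals of counting error. With lanes summed, LSU-rRNA_Hsa lies 0.16 above SSU-rRNA_Hsa and 0.22 above 5S, and SSU-rRNA_Hsa minus 5S, at 0.061, has an interval that crosses 0, as has LSU-rRNA_Hsa minus SSU-rRNA_Hsa in lane 2.

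The lanes, as repeat runs of the same libraries, had a difference with an interval above 0 for LSU-rRNA_Hsa only among the rRNA entries. Its log2 ratio was 0.22 in lane 1 and 0.12 in lane 2, a difference of 0.099 (0.016 to 0.18). This was seen in the input: the LSU share of lane 1 was 0.950 times (0.908 to 0.993) that of lane 2. In the ChIP it was 1.02 times (0.981 to 1.05). Of the 406 rows with at least 1000 input reads, 61 had a larger absolute lane difference, and the median was 0.035. Rows with fewer reads than LSU-rRNA_Hsa have more counting error, so this count does not measure how rare its lane difference is. The share of all rows with a lane interval that excludes 0 was not determined. For SSU-rRNA_Hsa the lane difference was -0.029 (-0.14 to 0.085) and for 5S it was 0.086 (-0.16 to 0.33), both with intervals that included 0. The lane difference of LSU-rRNA_Hsa, 0.099, stands beside a log2 ratio of 0.17 with lanes summed.

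Other structural RNAs, pooled by list, gave lower ratios than the subunit entries, although single rows with few reads lay on either side of them. The 60 transfer RNA (tRNA) rows had a pooled ratio of 0.809 (0.770 to 0.849). The most abundant, tRNA-Ala-GCY_ and tRNA-Ala-GCA, had ratios of 0.856 (0.799 to 0.918) and 0.992 (0.871 to 1.13). The tRNA-Ser-TCA(m) row, with 26 ChIP reads against 282 input reads, had a ratio of 0.0667, and without it the pooled tRNA ratio was 0.883 (0.840 to 0.929). Only 5 of the 60 tRNA rows had at least 100 input reads. Of these, 0 had a ratio at least 25% above that of the median row, against 11.1% of all rows. The interval lay above the median row for 1 of the 5 and below it for 1, against 192 and 135 of 704 rows. The tRNA-Ala-GCA row had 1.23 times the ratio of the median row, beside 1.20 times for 5S. The tRNA-Ser-TCA(m) row passed the minimum through its input reads, the library in which it is high, so its low ratio is given as a value only. It was named after its value was seen. The median log2 ratio of the 5 rows was -0.22, against -0.31 over all rows.

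The list of small RNA rows held 14 entries, most of them spliceosomal or nucleolar U RNAs, with 7SK, 7SLRNA and 4.5SRNA. Its pooled ratio was 0.888 (0.855 to 0.922). U6, a spliceosomal RNA, had 0.851 (0.790 to 0.916), 7SK, which holds the elongation factor P-TEFb inactive, had 0.882 (0.818 to 0.950), and 4.5SRNA had 0.986 (0.891 to 1.09). Of 6 such rows with at least 100 input reads, 0 had a ratio at least 25% above the median row and 0 had one of at most 0.8 times it, against 11.1% and 2.41% of all rows, shares from which few or none of 6 rows would be called. The interval lay above the median row for 3 of the 6 and below it for 0, against 192 and 135 of 704 rows. The 4.5SRNA row had 1.23 times the ratio of the median row, beside 1.20 times for 5S. The ratios of the 6 rows ran from 0.809 to 0.986. Their median log2 ratio was -0.19. U3, the nucleolar RNA needed to process the small subunit RNA from its precursor, was chosen after its value was seen. It had 117 ChIP and 87 input reads, a ratio of 0.973 (0.731 to 1.30).

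Relative to these lists as pools, both subunit entries were higher by the exact interval of the difference. The pooled tRNA ratio, 0.809, was close to that of the median row, 0.805, above which 27.3% of all rows had their interval. How many of all rows lie above either pool by such an interval was not determined. The pools rest largely on a few rows. tRNA-Ala-GCY_ held 1495 of the 3093 tRNA input reads, and U6 and 7SK held 1318 and 1281 of the 4883 small RNA input reads. The intervals of tRNA-Ala-GCA (0.871 to 1.13) and 4.5SRNA (0.891 to 1.09) overlapped that of SSU-rRNA_Hsa (0.971 to 1.05), and that of tRNA-Ala-GCA also overlapped that of LSU-rRNA_Hsa. LSU-rRNA_Hsa lay above the pooled tRNA rows by a log2 difference of 0.48 (0.40 to 0.56), and by 0.35 (0.27 to 0.44) without tRNA-Ser-TCA(m). Above the pooled small RNA rows it lay by 0.34 (0.28 to 0.41). SSU-rRNA_Hsa lay above the tRNA rows by 0.32 (0.23 to 0.41), or 0.19 (0.10 to 0.29) without tRNA-Ser-TCA(m), and above the small RNA rows by 0.19 (0.11 to 0.27). For both subunit entries these intervals were above 0 in each lane as well. For 5S the difference from the tRNA rows was 0.26 (0.12 to 0.40), but it was 0.13 without tRNA-Ser-TCA(m), with an interval from -0.0076 to 0.27. In lane 2 the interval of the difference from all tRNA rows, from -0.035 to 0.37, included 0. Without tRNA-Ser-TCA(m) the difference was 0.22 (0.024 to 0.42) in lane 1 and 0.039 (-0.16 to 0.24) in lane 2. Its difference from the small RNA rows was 0.12, with an interval from -0.0069 to 0.26. With lanes summed, the 5S entry was thus not separable from the small RNA rows, nor from the tRNA rows once 1 row was left out, although lane 1 alone placed it above the latter.

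**Figure D4:**
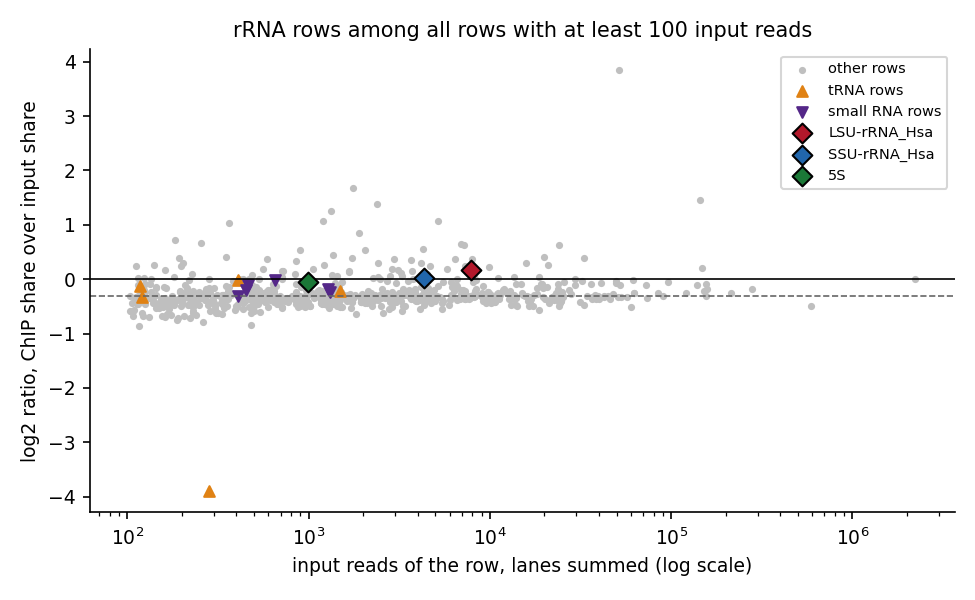
The log2 ratio of ChIP share to input share (vertical axis) against input reads (horizontal axis, log scale) for the 704 rows with at least 100 input reads, with the 3 rRNA entries as diamonds, tRNA rows as upward and small RNA rows as downward triangles. The solid line marks 0 and the dashed line the median row at -0.31; the rRNA entries lie between -0.046 and 0.17, and tRNA-Ser-TCA(m) is the lowest point of the plot.

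The authors' deposited table gives a log2 ratio with bounds for each lane, on its own scale between the libraries. For LSU-rRNA_Hsa the authors' deposited table has 0.39 (0.34 to 0.44) in lane 1 and 0.29 (0.24 to 0.34) in lane 2. For SSU-rRNA_Hsa the authors' deposited table has 0.17 (0.10 to 0.24) and 0.20 (0.13 to 0.27). For 5S the authors' deposited table has 0.16 (0.025 to 0.30) and 0.077 (-0.066 to 0.22). Its conservative value, the bound nearer 0, was above 0 for LSU-rRNA_Hsa and SSU-rRNA_Hsa in both lanes and for 5S in lane 1. The authors' deposited table has such values above 0 for 13.3% of its 952 rows in lane 1 and 12.9% in lane 2. On that scale the intervals of LSU-rRNA_Hsa and SSU-rRNA_Hsa thus lay above 0 in both lanes and that of 5S in lane 1, while on table totals the interval of LSU-rRNA_Hsa alone lay above 0 in either lane. The differences between the entries did not depend on this choice.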

How the data were processed

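H3.3S31ph ChIP and input DNA of mitotic mouse ES cells were sequenced as 50 bp single reads. The deposited counts are raw reads per repeat type, per the file headers, in 1 table for each of 2 lanes. Bowtie 1.0.0 and the build mm9 appear in the submitters' processing notes. The rule that gave each read its repeat type, and the treatment of multi-mapping and duplicate reads, are not given in the sources. The labels describe no molecular identifiers. The deposited log2 values were made by the authors; tested on the values, they equal the log2 of counts with 0.5 added minus 0.31 (lane 1) or 0.29 (lane 2), to within 0.00053.

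From the counts, lanes were summed and a row's share of ChIP reads was divided by its share of input reads (table totals). Intervals are 95% exact conditional ones (SciPy 1.17.1), checked on simulated counts that held counting error only. The interval of a difference between rows was checked at fewer reads and a larger difference than found here. Groups follow the antibody label, and with 1 sample each no test was made. Lengths of rows were not used. Named rows are the 3 entries, 2 rows either side of each in ratio among rows with at least 1000 input reads, the 2 tRNA and 3 small RNA rows with most input reads, and 3 points of scale. U3, tRNA-Ser-TCA(m), GC_rich, AT_rich, B1_Mur3 and B2_Mm1a fall outside this rule and were named after their values were seen. Members, lists and rules were chosen with earlier results of these data known. Alternatives were single lanes, other scales, other read minimums and 1 added read.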

Additional observations from a re-analysis of the deposited data

How the results depend on the processing

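The scale between the libraries moved every log2 ratio against input by 1 constant, and the differences between entries by nothing. With the median row set to 1, the log2 ratios were 0.49 for LSU-rRNA_Hsa, 0.33 for SSU-rRNA_Hsa and 0.27 for 5S. With old repeats set to 1 they were 0.47, 0.31 and 0.25, with the 5 rows with most reads left out of the totals 0.38, 0.22 and 0.16, and on the deposited scale 0.34, 0.18 and 0.12. The LSU-rRNA_Hsa ratio was 0.22 in lane 1 alone and 0.12 in lane 2 alone, both outside the interval of the summed lanes. LSU-rRNA_Hsa had a higher ratio than 93.5% of rows, and than 91.9% with at least 1000 input reads and 89.9% with no read minimum. SSU-rRNA_Hsa had a higher one than 89.6% of rows, and than 85.3% with no read minimum. The tRNA rows at most 0.8 times the base numbered 1, against 0 with at least 1000 input reads, where 1 tRNA row remained, and 2 of 5 with the fold taken against a ratio of 1. Over all rows these counts were 17 of 704, 1 of 406 and 334 of 704, so 2 of 5 is near the share of all rows. The other 37 recomputed values of the planned comparisons, those with 1 read added among them, stayed inside the interval of the main value or, for counts, within 1.5 times it. Comparisons with the pooled lists, and of both subunits with 5S, were added after seeing the data, as was leaving out tRNA-Ser-TCA(m). No paired analysis was possible because each group has 1 sample. Depth limits 5S most, with 995 input reads over both lanes.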
